A study of Oryzias latipes with 60 samples.

Results

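Wild-type medaka (Oryzias latipes), small freshwater laboratory fish, were compared after 5 days in a petri dish with saline and in ordinary housing. The 10 libraries were chosen by their labels alone, 5 from wild-type fish kept in the dish with saline (fish 33 to 37) and 5 from untreated wild-type fish kept in regular housing (fish 68 to 72), out of 60 libraries in the series. All fish were juveniles 3 to 4 weeks old and about 10 mm long, and poly-A RNA was sequenced from the whole animal. No dose applies to the saline fish: saline was the vehicle of cisplatin, a DNA-crosslinking drug that other fish of the series received at 70 µM, and DMSO was the vehicle of trametinib, a MEK inhibitor given at 20 nM. The series also held 35 fish transgenic for xmrk, an activated relative of the epidermal growth factor receptor from Xiphophorus, of which the 5 saline and 5 untreated fish are used below, with the 5 wild-type DMSO fish. The promoter that drives the transgene is not given in the labels.

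A vehicle control is meant to carry every feature of a treatment but the drug, so that a drug can be read against it. Confinement and handling can be parts of such a control, and fish are known to answer both through the cortisol axis. In whole-fish RNA each transcript is averaged over all organs, and fewer cells of a type cannot be told apart from less RNA per cell. Within this pair of groups the dish and the saline cannot be told apart either. The labels give no batch and no day of collection, so a batch that went with the groups cannot be told apart from the dish. The same holds for the transgenic saline and untreated fish. The labels do not say which fish shared a dish or how dish fish were fed, and every fish was counted as 1 independent replicate in the p-values.

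The counts of these 10 libraries totalled 53542861 ± 11298000 reads in saline fish and 49732893 ± 4549982 in untreated fish (SD, n = 5 each; two-sided exact permutation p = 0.516, adjusted p = 0.516 over 4 library measures). The 60 libraries of the series held between 34788594 and 67018564. Of 20459 gene identifiers, 18373 had enough reads to be tested and 18492 had reads in all 10 libraries. Gene names could not be attached, because 0 of the identifiers matched the reference table used here. The organs in the libraries, and the wild-type label, were therefore not checked against marker genes, and nothing is said of what a gene encodes.

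Saline and untreated fish separated in the transcriptome as a whole. In a principal component analysis of log2 CPM (counts scaled to a common library size, with TMM factors that offset differences in RNA composition), component 2 carried 32.8% of the variance and separated the groups, with saline fish between 35.96 and 57.48 and untreated fish between -51.82 and -34.72. Component 1, with 35.5%, did not follow the groups: saline fish 33 and 34 lay at -48 and -58.94 with untreated fish 69 and 70 at -51.71 and -50.61, while saline fish 35 to 37 lay at 35.56 to 52.37 and untreated fish 68 and 71 at 44.45 and 26.32. Untreated fish 72 lay between them at 1.21. Both groups thus held fish at either end of the first axis. ENSORLG00000007271, known to vary widely between fish of a group, had 70.8, 96, 0.799, 0.186 and 0.21 CPM in saline fish 33 to 37, against 0.0537, 52.3, 56.6, 0.417 and 10.7 CPM in untreated fish 68 to 72. Its high fish were those at the low end of component 1, the groups overlapped and it was not called (log2 fold change 0.48, SE 1.95, adjusted p = 0.87). The median root-mean-square distance between fish was 0.799 log2 units among saline fish and 0.644 among untreated fish, against 0.914 between a saline and an untreated fish.

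**Figure D1:**
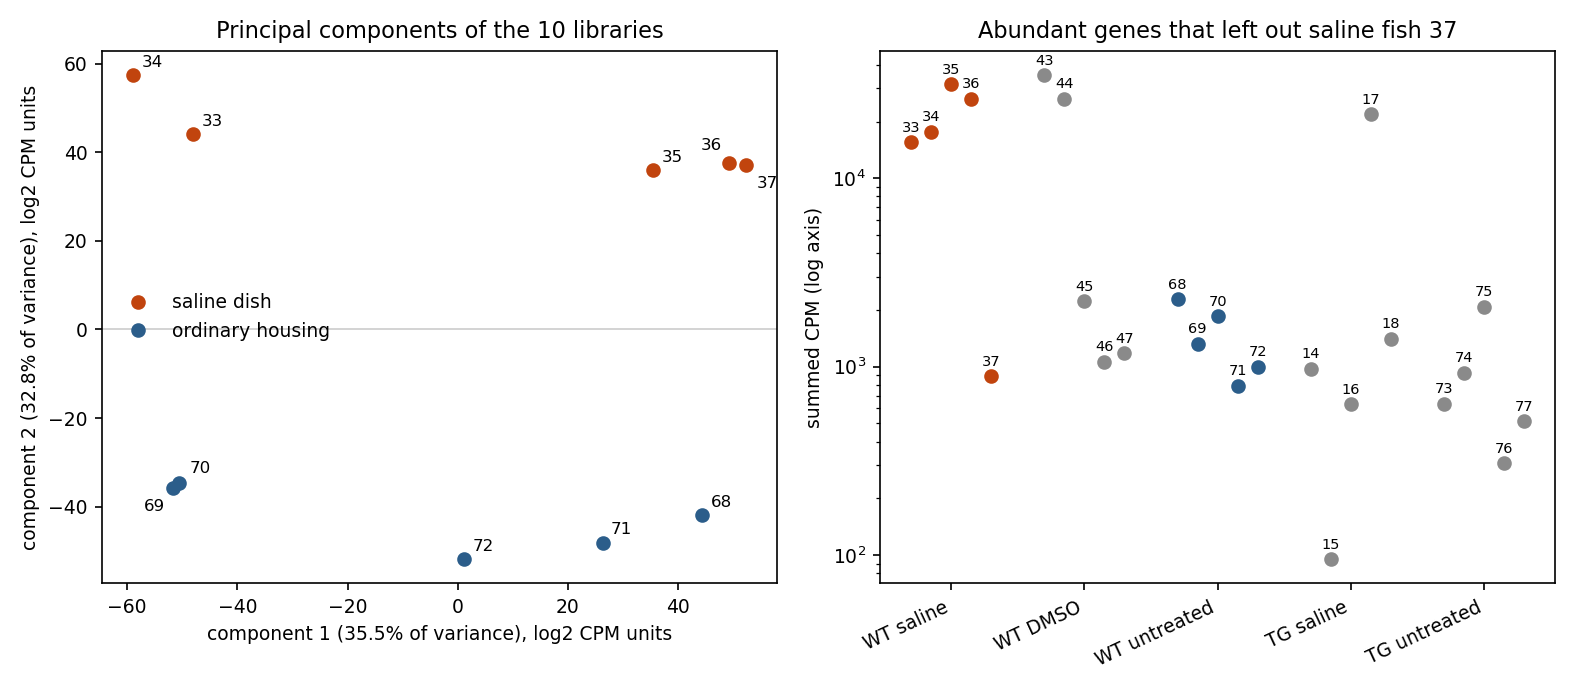
Left, the first and second principal components of the log2 CPM of 10 wild-type libraries, 1 point per fish with its number; the groups part on component 2, from 35.96 up in saline and from -34.72 down in untreated fish. Right, the summed CPM (log axis, scaled over 60 libraries) of the 14 abundant genes raised in saline fish 33 to 36, per fish in 5 groups; wild-type saline fish 37, DMSO fish 45 to 47 and all untreated fish lie at or below 2278.5.

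A large part of the tested genes changed, in both directions. In edgeR's quasi-likelihood test 7660 of 18373 genes (41.7%) had a Benjamini-Hochberg adjusted p under 0.05, which is what called means here. Of these, 3785 (20.6%) were higher and 3875 (21.1%) lower in saline fish than in untreated fish. With library totals in place of TMM factors the split was 2815 higher and 4601 lower. At an unadjusted p under 0.05 there were 9068 genes. In 5686 genes (30.9%) every saline fish lay on one side of every untreated fish, 2593 of them higher and 3093 lower, and 5589 of these were called. When each fish was left out in turn, 6031 of the 7660 genes (78.7%) were called in all 10 fits, and all 7660 had the same sign in all 10. These genes were chosen with all fish and each fit reuses the fish that remain. The kept signs were therefore largely fixed by the choice.

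Most of the changes were small. The median log2 fold change was 0.62 among genes called higher (quartiles 0.44 and 0.94) and -0.62 among genes called lower (quartiles -0.91 and -0.44), against 0.04 over all genes tested. At least 1.5-fold change was seen in 4191 called genes, 2058 higher and 2133 lower. At least 2-fold change was seen in 1586, 817 higher and 769 lower. Of the large changes, 131 were rises and 78 falls of at least 4-fold, and 47 were rises and 18 falls of at least 8-fold. The weakest called change was 0.18 in absolute log2 units. Tested against a null of at most 1.5-fold, a stricter question than any change, 1679 genes passed, 714 higher and 965 lower.

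**Figure D2:**
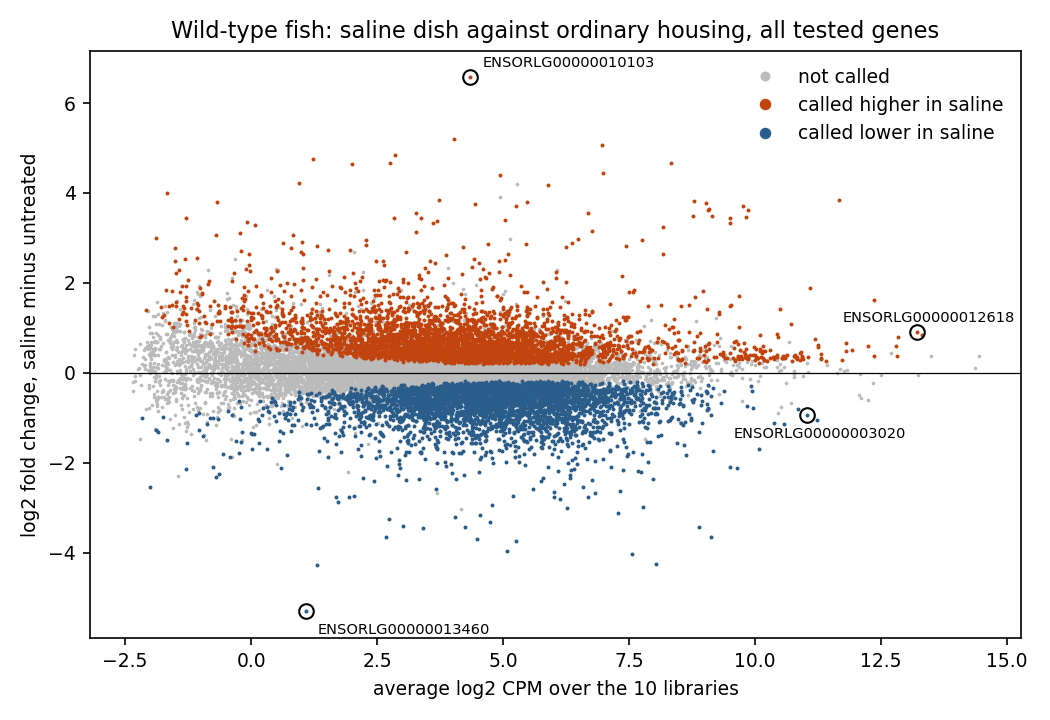
Log2 fold change (saline minus untreated) against average log2 CPM over the 10 libraries, 1 point per tested gene, coloured by call. The called genes, 3785 higher and 3875 lower, spread over the whole range of levels, and the circled genes are the 4 described by identifier.

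The gene with the largest rise was close to silent in housed fish. ENSORLG00000010103 stood at 36.3, 28.2, 56.4, 28.4 and 51.3 CPM in saline fish 33 to 37, against 0.483, 0.44, 0.215, 0.326 and 0.642 CPM in untreated fish 68 to 72. Every saline fish exceeded every untreated fish, and none of the 10 libraries lacked reads of it, the lowest count being 11. Its mean was 40.1 ± 13.1 CPM in saline fish and 0.421 ± 0.162 CPM in untreated fish (SD, n = 5 each), a 95.1-fold difference (log2 fold change 6.57, SE 0.33, adjusted p = 6.81e-07).

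ENSORLG00000012618 gained the most CPM of all called genes whose groups did not overlap. It had 10163.4, 9578.4, 12643.8, 11369.4 and 17772.5 CPM in saline fish 33 to 37, against 6636.3, 5251.2, 6666.8, 7009.4 and 7477.1 CPM in untreated fish 68 to 72. The groups stood apart, with saline fish 37 the highest. The difference of means was 5697.4 CPM, a 1.86-fold rise (log2 fold change 0.90, SE 0.17, adjusted p = 0.00144). Against a null of at most 1.5-fold the rise did not pass (adjusted p = 0.115).

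The deepest fall was in ENSORLG00000013460, which dropped to the edge of detection in the dish. It had 0.0306, 0.17, 0, 0 and 0.325 CPM in saline fish 33 to 37, against 2.47, 3.14, 4.35, 7.44 and 2.77 CPM in untreated fish 68 to 72. The saline values rest on 2, 6, 0, 0 and 17 reads, against 138, 143, 223, 411 and 134 reads in untreated fish. No saline fish reached the lowest untreated fish. The means were 0.105 ± 0.142 CPM in saline fish and 4.04 ± 2.03 CPM in untreated fish (SD, n = 5 each), and the fitted log2 fold change was -5.30 (SE 0.84, adjusted p = 0.00058).

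ENSORLG00000003020 lost the most CPM of the called genes without overlap. It had 1111.3, 1081.5, 1778.5, 1827.1 and 1345.2 CPM in saline fish 33 to 37, against 2791.2, 3282.1, 3041.6, 2648.8 and 2033.1 CPM in untreated fish 68 to 72. The highest saline fish lay below the lowest untreated fish. Its log2 fold change was -0.95 (SE 0.18, adjusted p = 0.0014), and the call was lost against the 1.5-fold null (adjusted p = 0.085), with the 20 saline and untreated libraries of both genotypes in 1 fit (0.0692) and with all 60 libraries in 1 fit (0.171).

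**Figure D3:**
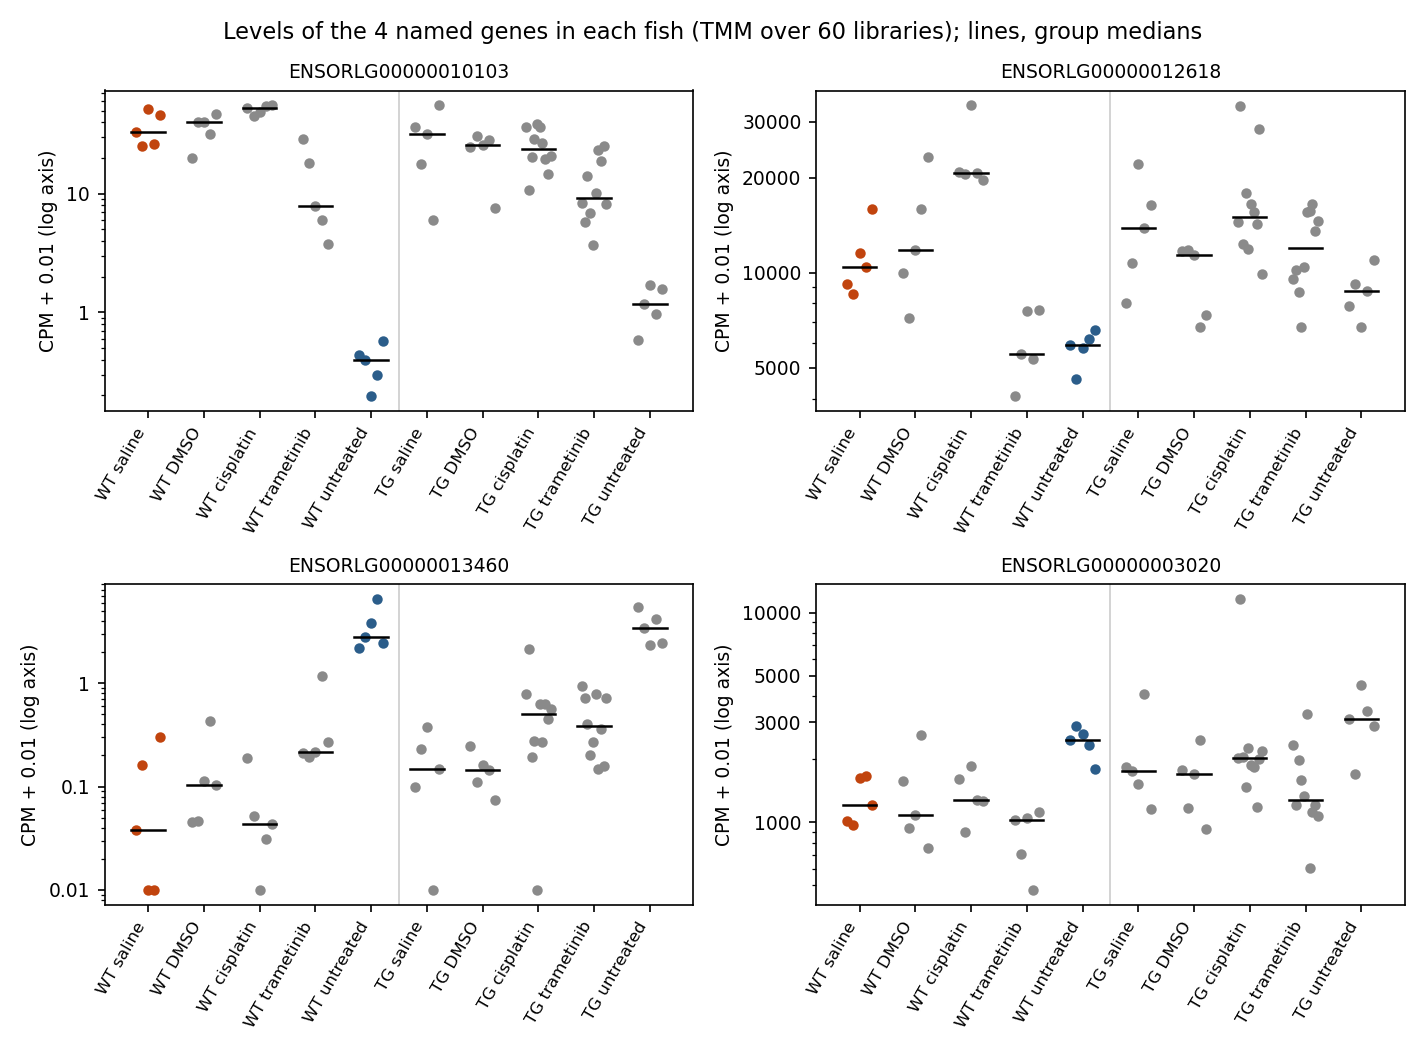
CPM + 0.01 (log axis, scaled over 60 libraries) of 4 genes in every fish of the series, by group; points are fish, lines are medians. Wild-type saline and untreated fish do not overlap for any of the 4, which was a condition of their choice. The other 3 wild-type dish groups (DMSO, cisplatin, trametinib) are shown between them.

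Beyond these genes, the 20 largest rises (average log2 CPM of at least 1, groups not overlapping) had log2 fold changes between 2.81 and 6.57, and the 100 largest began at 1.73. The 20 deepest falls were of 2.88 to 5.30 log2 units, and the 100 deepest ended at 1.8. Complete appearance or loss of a transcript was rare. Reads in all 5 saline fish with 0 in all 5 untreated fish were found for 2 genes, at means of 0.0391 and 0.0732 CPM in saline fish, near the edge of detection. The reverse was found for 0 genes, and 447 identifiers had no read in any of the 10 libraries.

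How abundant a gene was went with the direction in which it moved. Among the 117 genes with an average log2 CPM of 10 or more, 59% were called higher and 5.13% lower in saline fish, with a median log2 fold change of 0.33. Among the 1984 genes between 6 and 8 the balance was opposite, with 17.5% higher and 37.2% lower and a median of -0.12. In the lowest class, under 0, 10.8% were called higher and 2.73% lower. These differences kept their direction with library totals in place of TMM factors, at 41.9% and 6.84% in the top class, 13.8% and 43.2% between 6 and 8, and 8.54% and 3.43% under 0. Library totals lowered the median of every class. Between 6 and 8 they could thus only deepen the lean, and the change of scaling tests nothing there. Between 2 and 4 (22.6% higher, 17.3% lower) and between 8 and 10 (31.1% and 24.5%) the balance turned with library totals, to 16.6% and 21% and to 23.2% and 30.3%. No direction is given for those levels.

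Saline libraries were more concentrated in a few transcripts. The 10 most abundant genes of a library took 12.6% ± 1.03 of the counts in saline fish (11.2% to 13.8%) and 10.1% ± 0.528 in untreated fish (9.66% to 10.8%; SD, n = 5 each), a separation without overlap (adjusted p = 0.0317 over 4 measures from a two-sided exact permutation test, whose raw p of 0.00794 is its lowest possible value for groups of 5). The top abundance class took 35% ± 2.19 of the counts in saline fish and 30.3% ± 0.944 in untreated fish. Genes between 6 and 8 took 20.7% ± 0.87 in saline fish and 24.2% ± 0.389 in untreated fish. The TMM factor was 0.972 ± 0.0496 in saline fish and 1.03 ± 0.0147 in untreated fish (exact permutation p = 0.0238, adjusted p = 0.0423), and 19317 ± 63.4 genes had reads in saline fish against 19233 ± 32.6 in untreated fish (exact permutation p = 0.0317, adjusted p = 0.0423). Counted at 1 CPM or more, the numbers of genes were 17050 ± 207.1 in saline fish and 16964 ± 103.1 in untreated fish, which did not pass (exact permutation p = 0.421, adjusted p = 0.516). For each of these 3 measures, leaving out any 1 fish but untreated fish 70 gave an adjusted p above 0.05, of 0.0635 or 0.0847, with the direction kept. With 1 fish fewer the lowest p this permutation test can give is higher. These adjusted p-values alone therefore cannot show whether a difference weakened or rested on a fish. The top-10 shares of the groups did not overlap with all fish, so leaving out any 1 fish could not bring overlap and tests nothing. The identity of the abundant genes changed little, since 7 of the top 10 by mean level, 39 of the top 50 and 83 of the top 100 were shared by the groups. Of the 100 most abundant in untreated fish, 47 were called higher and 12 lower in saline fish, against 20.6% and 21.1% of all genes tested.

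**Figure D4:**
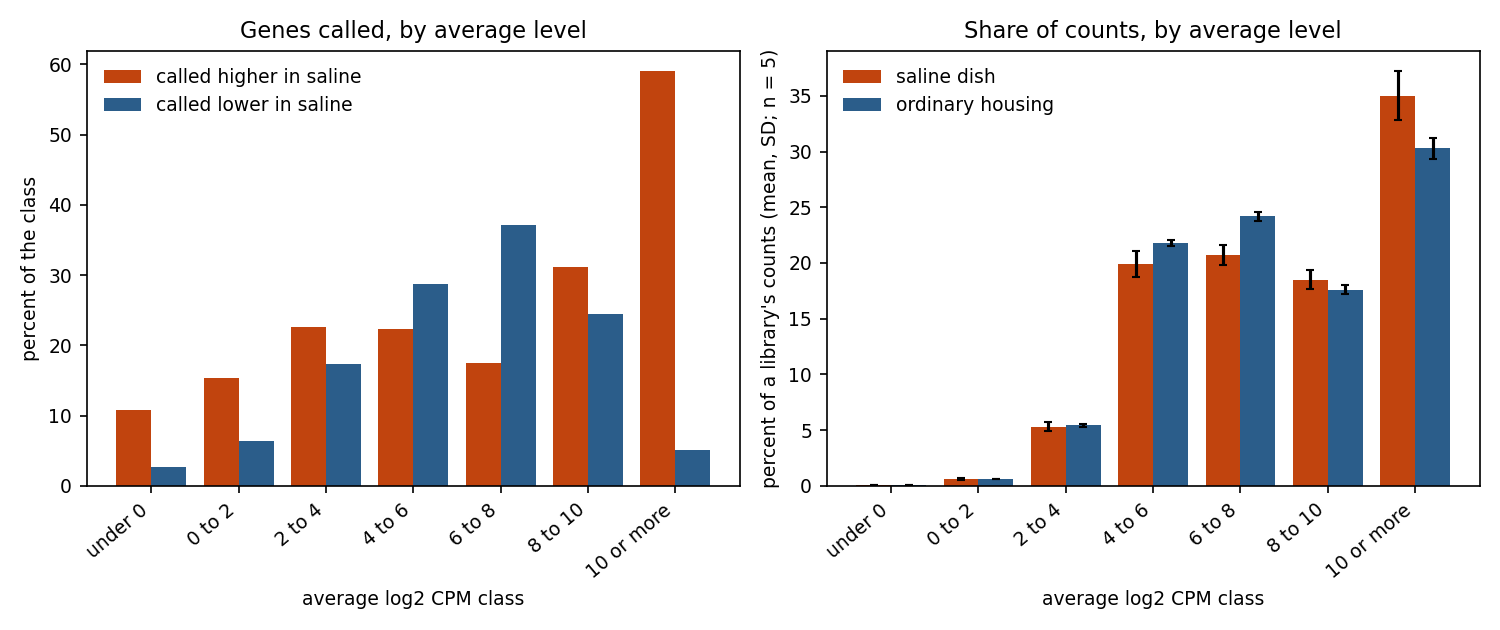
Left, percent of tested genes called higher and lower in saline fish by class of average log2 CPM; the 117 genes at 10 or more are mostly called higher (59%), those from 6 to 8 more often lower (37.2%). Right, percent of a library's counts in each class, saline before untreated, mean with SD over 5 fish each; the top class takes 35% in saline and 30.3% in untreated fish.

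The spread between fish was wider in the dish. The median standard deviation of log2 CPM was 0.23 among saline fish and 0.19 among untreated fish over the 18373 tested genes. It was wider among saline fish in 63.6% of genes, at least 2 times wider among saline fish in 20.5% and at least 2 times wider among untreated fish in 7.35%. The same lean was present among genes called higher (62.6%) and called lower (65.6%). The difference in spread rests on 5 fish a group and was not tested.

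Not every saline fish lay beyond the untreated fish in every called gene. Of 3875 genes called lower, in 3044 (78.6%) all 5 saline fish lay below the lowest untreated fish. Of 3785 genes called higher, in 2545 (67.2%) all 5 lay above the highest untreated fish. In 648 genes called lower and 962 called higher, 1 saline fish alone was not beyond the untreated fish. That fish was fish 37 in 216 of the 648, against 89 to 135 genes for each of the others. Among the 962 it was fish 37 in 271, against 140 to 200 genes for each of the others. For changes of at least 4-fold the shares were 74 of 78 (94.9%) among falls and 87 of 131 (66.4%) among rises. In 41 of those 131 rises 4 saline fish lay above the untreated fish and 1 did not, and that 1 fish was fish 37 in 32 of the 41 genes, against 2 or 3 genes for each of the others. Fish 37 also stood apart from saline fish 35 and 36 on component 3 (7.79% of variance), at -53.92 against 22.31 and 23.25.

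Abundant genes made up 14 of those 32. They were picked out after the values were seen, so their wild-type contrast is a description: of 18 genes called higher at least 4-fold that averaged 7 or more in log2 CPM, 14 were above every untreated fish in saline fish 33 to 36 and not in fish 37. Their summed level was 17042.7, 19699.3, 34579.2, 28972 and 989.5 CPM in saline fish 33 to 37, against 2562.3, 1511, 2143.9, 898.5 and 1131.5 CPM in untreated fish 68 to 72. Saline fish 33 to 36 were high and fish 37 was within the untreated range. As a share of the counts these 14 genes took 1.73%, 2%, 3.22%, 2.63% and 0.0978% in saline fish 33 to 37, against 0.093% to 0.262% in untreated fish. Their log2 fold changes ran from 2.95 to 3.84 with all 5 saline fish and from 3.26 to 4.15 without fish 37. In the fit without fish 37, 14 of 14 were called, among 7648 genes called in all. Both the larger changes and these calls follow from how the 14 genes were chosen. The other 4 of the 18 did not overlap between the groups.

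The same genes also differed widely between fish of the DMSO group. On the scale of all 60 libraries, their summed level was 35341.9 and 26469.8 CPM in wild-type DMSO fish 43 and 44 and 2221.2, 1064.1 and 1175.6 CPM in DMSO fish 45, 46 and 47. Transgenic saline fish 17 had 21927.8 CPM, and the other 4 transgenic saline fish lay between 95.3 and 1410.1 CPM. In untreated fish the level was 306.5 to 2078.1 CPM in the transgenic and 791.4 to 2278.5 CPM in the wild-type group. With library totals fish 17, whose TMM factor was 0.232, had 5096.8 CPM, against 98.6 to 1446.4 CPM in the other 4 and at most 2273.5 CPM in untreated transgenic fish. Among the drug groups, wild-type trametinib fish had 3949.8 to 22177.6 CPM and wild-type cisplatin fish 879.3 to 2840.9 CPM. Transgenic fish had 913.3 to 7167.3 CPM in DMSO, 164 to 3456.1 CPM in cisplatin and 181.1 to 8676.2 CPM in trametinib. For saline against untreated in transgenic fish, 0 of the 14 were called with fish 17, where 6.06% of all genes were (log2 fold changes 1.09 to 4.74, smallest adjusted p = 0.089 by edgeR). Without it 0 were called as well, where 30.3% of all genes were (-1.0 to 1.19, smallest adjusted p = 0.267). The smallest adjusted p for the difference between the genotypes was 0.372 with fish 17 and 0.0754 without it, in a test that called 0.0483% of all genes with fish 17.

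The response of the other genotype can be read in fish that share no library with the wild-type comparison. Transgenic saline fish 17 had a TMM factor of 0.232 over the 60 libraries, which the check for outlying fish given below did not flag. Values are given with and without fish 17. Saline against untreated gave 1110 called genes of 18317 (6.06%) with it, 596 higher and 514 lower, and 5578 of 18422 (30.3%) without it, 3090 higher and 2488 lower. Leaving out transgenic fish 14 or 15 in its place gave 1196 and 779 calls. Leaving out fish 16, 18, 73, 74, 75, 76 or 77 gave 494, 525, 348, 405, 392, 389 and 395 calls. The genes called in wild-type fish mostly kept their sign. Without fish 17, 3464 of 3777 genes called higher in wild type (91.7%) had a positive log2 fold change in transgenic fish, against 50.4% of all genes tested, and their medians were 0.58 in transgenic and 0.62 in wild-type fish. Of 3871 genes called lower in wild type, 3509 (90.6%) were negative in transgenic fish, against 49.6% of all genes tested, with medians of -0.45 in transgenic and -0.62 in wild-type fish. With fish 17 these shares were 84.4% and 70.9%.

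How far the 2 lists of calls overlapped depended on fish 17. Without fish 17, 4060 genes were called in the same direction in both genotypes, 53% of the wild-type and 72.8% of the transgenic calls, and 7 were called in opposite directions. With fish 17 there were 929 shared calls, 12.1% of the wild-type and 83.7% of the transgenic calls, and 0 opposite ones. Of all genes tested, 41.7% were called in either direction in wild type. In transgenic fish 30.3% were called without fish 17 and 6.06% with it. Genes called at least 2-fold in transgenic fish without fish 17, a choice that used no wild-type library, can be followed in each wild-type fish. Relative to the untreated wild-type mean, the median of those higher in transgenic saline fish lay at 0.90, 1.03, 0.94, 1.02 and 1.2 log2 units in saline fish 33 to 37, against -0.10 to 0.13 in untreated fish 68 to 72. The median of those lower lay at -0.95, -1.10, -1.06, -1.01 and -1.2 in saline fish, against -0.07 to 0.09 in untreated fish. Fish 37, low for the abundant set above, was the most displaced of the saline fish on both lists.

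**Figure D5:**
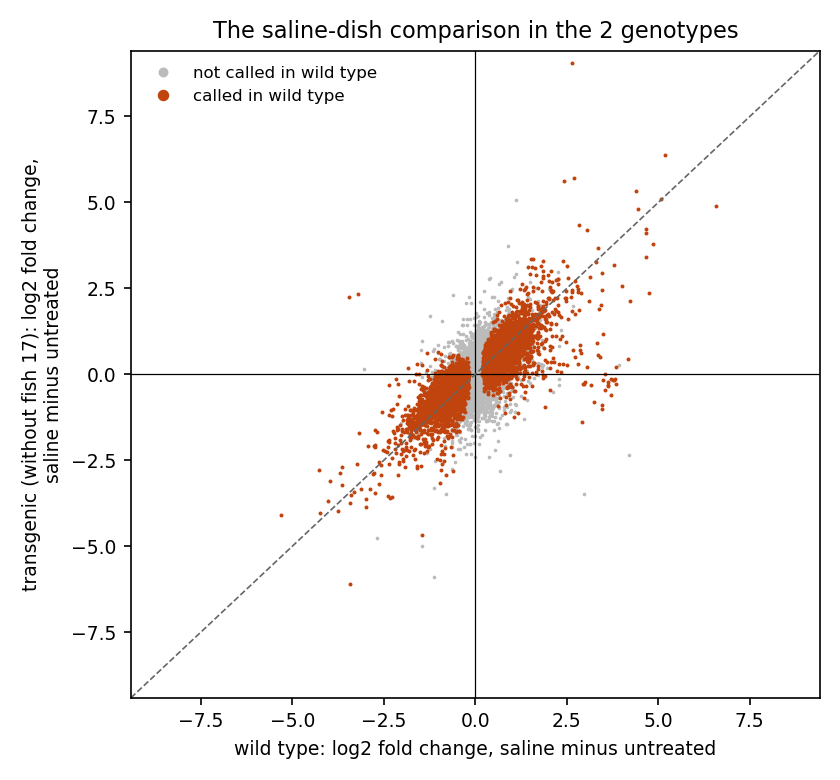
Log2 fold change of saline against untreated in transgenic fish without fish 17 (vertical) and in wild-type fish (horizontal), 1 point per gene tested in both; coloured points were called in wild type, and the dashed line marks equal values. Most coloured points share a sign in both genotypes (91.7% of those higher and 90.6% of those lower in wild type).

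ENSORLG00000010103 rose in transgenic fish as well. On the 60-library scale it had 36.6, 17.7, 31.7, 5.99 and 55.4 CPM in transgenic saline fish 14 to 18, against 0.572, 1.16, 1.68, 0.955 and 1.57 CPM in untreated transgenic fish 73 to 77. On this scale the groups did not overlap, and fish 17 was the lowest of the saline fish. Fish 17 was lifted by its TMM factor of 0.232: with library totals it had 1.39 CPM, inside the untreated transgenic range of 0.675 to 1.84 CPM, while the other 4 saline fish had 18.3 to 56.8 CPM. The log2 fold change was 4.61 (SE 0.58, adjusted p = 0.00256), or 4.90 without fish 17 (adjusted p = 4.74e-05). In the test of the difference the wild-type value was higher by 1.98, which did not pass (SE 0.62, adjusted p = 0.285). ENSORLG00000013460 fell in transgenic fish too (-4.26 in log2 units, SE 0.54, adjusted p = 0.00256). ENSORLG00000012618 had 0.70 (SE 0.41, adjusted p = 0.287) and ENSORLG00000003020 had -0.59 (SE 0.45, adjusted p = 0.406), neither of which passed, while without fish 17 ENSORLG00000003020 passed with -0.99 (SE 0.27, adjusted p = 0.0188) and ENSORLG00000012618 did not (0.73, SE 0.29, adjusted p = 0.0881).

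A test of the difference of the 2 responses, with 20 libraries in 1 fit, called 9 of 18632 genes (0.0483%), 7 with a positive and 2 with a negative difference, wild type minus transgenic. At an unadjusted p under 0.05 there were 3022. Without fish 17 the test called 84, 58 positive and 26 negative, among them all 9. Of the 9 genes, 6 were also called in wild-type fish, where 41.7% of all genes tested were called. Both tests used the same wild-type libraries. The gene with the smallest adjusted p (0.00192, difference 4.81, SE 0.59) averaged 210.2 CPM in wild-type saline fish (27.5 to 329.8), against 448.1 CPM in untreated wild-type fish (370.3 to 531.2). This gene was not called in the wild-type comparison. In transgenic fish it averaged 11.6 CPM in saline (8.95 to 14.5), against 693.5 CPM when untreated (533 to 915.4). A gene of the opposite sign (difference -2.11, SE 0.33, adjusted p = 0.0135), also called lower in wild type, averaged 74.4 CPM in wild-type saline fish, against 376.8 CPM in untreated wild-type fish. In transgenic fish it averaged 123.7 CPM in saline, against 144.7 CPM when untreated.

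The wild-type DMSO fish also spent 5 days in a dish, with another vehicle. The labels do not say whether they also differed from the saline fish in dish or day. Saline against DMSO gave 0 called genes of 18410 (0%) by edgeR, with 1412 at an unadjusted p under 0.05, 0 called by limma-voom and 17 by DESeq2 (3 higher and 14 lower in saline). The smallest adjusted p by edgeR was 0.509. The median half-width of the 95% interval was 0.50 log2 units, and for 12660 genes (68.8%) the interval lay within 2-fold either way, so that larger differences in the remaining genes were not resolved by 5 fish against 5. For ENSORLG00000010103 saline minus DMSO was 0.01 (95% interval -0.57 to 0.58), for ENSORLG00000012618 -0.31 (-1.03 to 0.40) and for ENSORLG00000003020 -0.13 (-0.86 to 0.61). ENSORLG00000013460 had too few reads in these groups to be tested.

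DMSO fish were also set against the same untreated fish. As the untreated fish are shared, only the values are placed side by side. The log2 fold change of ENSORLG00000010103 was 6.56 (SE 0.34) for DMSO and 6.57 (SE 0.33) for saline. That of ENSORLG00000013460 was -4.73 (SE 0.65) for DMSO and -5.30 (SE 0.84) for saline. ENSORLG00000012618 had 1.21 (SE 0.30) for DMSO and 0.90 (SE 0.17) for saline, and ENSORLG00000003020 had -0.82 (SE 0.32, adjusted p = 0.0764) for DMSO and -0.95 (SE 0.18, adjusted p = 0.0014) for saline.

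Across the whole series, the levels of ENSORLG00000010103 put every dish group above both untreated groups. On the 60-library scale it averaged 36.3 ± 11.8 CPM in wild-type saline, 35.7 ± 10.3 in DMSO, 51.3 ± 4.46 in cisplatin and 12.9 ± 10.4 in trametinib fish, against 0.371 ± 0.144 CPM in untreated wild-type fish (SD, n = 5 each). The saline and DMSO means differed by less than the spread of either group. In transgenic fish the means were 29.5 ± 18.8 CPM in saline, 23.4 ± 9.16 in DMSO, 25.3 ± 9.63 in cisplatin (n = 10) and 12.5 ± 7.62 in trametinib (n = 10), against 1.19 ± 0.452 CPM in untreated fish. On this scale the lowest dish fish of the series, at 3.66 CPM, lay above the highest untreated fish, at 1.68 CPM, but with library totals transgenic saline fish 17, at 1.39 CPM, lay below the highest untreated fish, at 1.84 CPM. ENSORLG00000013460 ran the other way, with medians of 0.0278 CPM in saline, 0.0926 in DMSO, 0.0339 in cisplatin and 0.208 in trametinib, against 2.76 CPM in untreated wild-type fish. Its highest dish fish, at 2.12 CPM, lay below the lowest untreated fish, at 2.2 CPM, and with library totals these values were 1.29 and 2.53 CPM. For this gene no dish fish overlapped an untreated fish among the 60 on either scale. Both genes were chosen for no overlap between wild-type saline and untreated fish, so for those fish the separation was fixed by the choice. The other wild-type dish groups were set against the same untreated fish.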

How the data were processed

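Whole-fish poly-A RNA of 60 medaka was sequenced, and the authors deposited unnormalized whole-number read counts for 20459 gene identifiers in 60 columns, each matched to a sample by name. Per the submitters' processing notes, TopHat2 (2.2.4) and featureCounts were used; for the build, annotation, strand setting and handling of reads with several positions, nothing is given in the sources used here: near-identical and overlapping genes are uncertain. Among the 20 pairs of libraries within the 2 groups none were duplicates (smallest chi-square per gene 48.5).

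The 5 saline and 5 untreated wild-type libraries were fitted alone in R 4.3.3 with edgeR 4.0.16 (filterByExpr, TMM, robust quasi-likelihood F test, Benjamini-Hochberg adjustment over all genes tested, called under 0.05), with standard errors from the F statistic. Principal components and spreads used log2 CPM (prior count 2). The same test was run on transgenic fish, on the difference of responses (20 libraries) and on saline against DMSO. Alternatives used DESeq2 1.42.0, limma 3.58.1 and sva 3.50.0, other filters, scalings and sets of libraries, and left out each fish. Only the edgeR fit was first tested on simulated counts, for saline against untreated in each genotype, the difference and saline against DMSO. The simulation gave every gene the same dispersion setting and changed fewer genes than were called in wild type. DESeq2, limma, sva, the 1.5-fold null and the permutation tests were not tested in this way. Library measures were compared by exact permutation over 252 splits (SciPy 1.17.1).

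As 0 of the 20459 identifiers matched the reference table, the 19 lists of genes written by symbol could not be tested, and at most 2 genes per direction are named: the called gene with the largest fold change (average log2 CPM of at least 1, groups not overlapping) and the one with the largest difference of mean CPM. ENSORLG00000007271 is given because its variation between fish was known. The comparison, the lists and the rules were chosen with earlier results of these data known.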

Additional observations from a re-analysis of the deposited data

Results flagged for a closer look

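The difference of the saline response between genotypes was called for 9 genes, described above with the values without fish 17. Each of the 4 genes described by identifier as changed was examined in all 10 groups for a fish far from the others, as were the 4 library measures and the first 3 components in wild-type saline and untreated fish and the TMM factor in transgenic saline fish. Of these 55 sets 8 had one. The cut-off flags about 1 in 20 sets of normally distributed values. CPM were not checked for that, and some lie near 0, so that this rate need not apply here. On the 60-library scale, ENSORLG00000010103 was at 7.53 CPM in transgenic DMSO fish 57, the others lying at 24.6 to 30.8. ENSORLG00000012618 was at 33931.1 CPM in wild-type cisplatin fish 40, the others at 19713.7 to 20764.6. ENSORLG00000013460 was at 2.12 CPM in transgenic cisplatin fish 21 (others 0 to 0.779), at 0.416 in wild-type DMSO fish 46 (0.0358 to 0.104), at 0.18 in wild-type cisplatin fish 38 (0 to 0.0422) and at 1.16 in wild-type trametinib fish 51 (0.183 to 0.259). ENSORLG00000003020 was at 11680.9 CPM in transgenic cisplatin fish 21 (others 1187.4 to 2263.3) and at 4102.7 in transgenic saline fish 17 (others 1152.9 to 1835.9). TMM factors over the 60 libraries were 0.292 in fish 21, 0.232 in fish 17 and 0.685 in fish 40. The factor of fish 17 was not flagged among the transgenic saline fish. With library totals ENSORLG00000003020 was at 953.6 CPM in fish 17, the lowest of its group, and at 3410.2 CPM in fish 21, with the highest of the others at 2580.8. ENSORLG00000013460 was at 0.62 CPM in fish 21, below the highest of the others at 0.874, and ENSORLG00000012618 was at 23255.6 CPM in fish 40, with the others at 17865.4 to 19645.5. No wild-type saline or untreated fish was among the 8.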

How the results depend on the processing

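No paired analysis was possible because no fish number is shared between groups. Against 7660 wild-type calls (3785 higher, 3875 lower), there were 2539 (1267 and 1272) with the 20 libraries of both genotypes in 1 fit, 2740 (1453 and 1287) with all 60, and 1679 (714 and 965) against a null of at most 1.5-fold, an alternative added after the data were seen. Also added then, the 20 libraries without fish 17 gave 6950 and the 54 libraries with a TMM factor of at least 0.8 gave 6407. DESeq2 gave 8266, limma-voom 7621, library totals 7416, no filter 7557, a filter at 1 CPM 7599 and 1 surrogate variable 7786. Leaving out 1 fish gave 6750 (fish 71) to 7648 (fish 37). ENSORLG00000010103 and ENSORLG00000013460 were called in all 23 alternatives, ENSORLG00000012618 in 22 and ENSORLG00000003020 in 20.

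In transgenic fish DESeq2 called 3326 (1933 higher, 1393 lower) against 1110, and leaving out 1 fish gave 348 (fish 73) to 5578 (fish 17), 148 to 3090 higher and 191 to 2488 lower, with 308 lower without fish 15. For the difference between genotypes DESeq2 called 115 (69 positive, 46 negative) and limma-voom 6 (4 positive, 2 negative). Leaving out 1 fish gave 7 to 84 (fish 17), 5 to 58 positive and 2 to 26 negative, with 4 negative without fish 37 or fish 77. For saline against DMSO DESeq2 called 17 (3 higher, 14 lower), and leaving out 1 fish gave 0 in each fit. Leaving out 1 fish gave differences of -0.0702 to -0.0425 in TMM factor, 2.22 to 2.89 percentage points in the top-10 share and 66.8 to 99 in genes with reads. The adjusted permutation p over the 4 measures ran from 0.0212 (without fish 70) to 0.0847, 0.0635 and 0.0847. The lowest p this test can give is higher with 1 fish fewer. Genes at 1 CPM or more differed by 86.2 (adjusted p = 0.516), an alternative added after the data were seen, as were library totals for levels across the 60 fish. Genes with few reads limit what 5 fish a group resolve.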
